A study of Mus musculus with 16 samples.

Results

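Core spliceosome proteins are described here as measured after amplification of a trace of mouse embryonic stem cell RNA by PCR. The members are all probe sets whose only gene symbol in the platform annotation begins with Snrp, U2af, Lsm, Sf3a, Sf3b or Prpf (the last 4 followed by a digit), with Snrpn left out. They are 105 probe sets of 44 genes, out of 34945 probe sets with a single symbol that cover 18193 genes. Of the 105, 92 were bright enough to be tested, and these cover all 44 genes. A further 6 probe sets that share their annotation with another symbol were not used, so the Sm genes Snrpd1 and Snrpd2, the U1 gene Snrpa and the LSm gene Lsm5 are not described.

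The series compares 8 amplified arrays with 8 nonamplified arrays, all from total RNA of cultured embryonic stem cells of the line E14tg2a. For the amplified arrays the RNA was diluted to 10 pg and its cDNA was amplified by PCR with a procedure named V1V3, made for single cells, before biotin labelling. For the nonamplified arrays 5 µg of RNA was labelled directly. The samples carry technical replicate numbers and no treatment or genotype differs between them, so p-values measure only the spread between amplification reactions and between arrays.

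The spliceosome removes introns from pre-mRNA and is assembled from small nuclear ribonucleoproteins, each a small nuclear RNA with its proteins. A ring of Sm proteins encircles the U1, U2, U4 and U5 RNAs, and a related ring of LSm proteins holds the end of the U6 RNA. U1 recognises the start of the intron, U2AF and U2 recognise its end and branch point, and U4, U5 and U6 join as a tri-snRNP that is rearranged into the catalytic machine. Genes for these proteins are expressed in nearly all cells.

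Median intensity over all probe sets lay between 33.9 and 36.7 on the amplified arrays and between 49.7 and 53.8 on the nonamplified arrays. The lowest value in the table, 1, was held by 6.77 to 8.36% of probe sets on amplified arrays and by 2.08 to 3.22% on nonamplified arrays. All 10 embryonic stem cell markers examined were bright enough to be tested, of which 4 rose, 3 fell and 3 were not called, with a summed intensity of 39090 to 42790 on amplified arrays and 30110 to 31730 on nonamplified arrays. Of 8 fibroblast feeder markers 5 were bright enough to be tested, 1 rose and 2 fell, and their summed intensity was 265 to 421 on amplified arrays and 323 to 416 on nonamplified arrays. Their part in the results was not tested. Because the scaling of the arrays is not given in the sources used here, calls were also made under 4 other scalings, which moved the median log2 fold change over all tested probe sets from -0.17 as deposited to between -0.53 and 0.30.

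On the values as deposited, the called core spliceosome probe sets divided evenly into higher and lower ones after amplification. In the Sm ring 6 of 9 and in the U6 LSm ring 5 of 9 were higher on amplified arrays, while of the 22 in the tri-snRNP and Prp group 11 were lower and 1 was higher. Calls of both kinds depended in part on the scaling, as given for each group below. Of the 92 tested members, 68 differed at a limma adjusted p under 0.05, which is 73.9% against 57.5% of all 27022 tested probe sets. The 68 comprise 34 that were higher after amplification (37.0%, against 24.7% of all) and 34 that were lower (37.0%, against 32.8% of all). A change of at least 2-fold was found for 27 higher members, where the background was 12.5%, and for 29 lower members, where it was 22.1%. The 8 amplified and 8 nonamplified arrays did not overlap for 53 members (57.6%, against 33.6% of all). The median log2 fold change was -0.22 over the tested members and -0.17 over all tested probe sets, and with the 13 untested members included the median difference was -0.27. A member can pass the filter on dim probe sets through the level of 1 group alone.

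With 1 probe set per gene, the one with the highest nonamplified mean, 21 of the 44 genes were higher (47.7%, against 23.1% of all genes) and 10 were lower (22.7%, against 30.3%). The median over these 44 was 0.34, against -0.17 over all 13438 genes tested in that way. The median was -0.22 after quantile normalization, -0.06 with the hybridization controls, 0.86 with arrays centred on their median and 0.84 when scaled on the brighter 50%. Without _x_at and _s_at probe sets it was -0.03, over 36 genes of which 15 were higher and 10 lower. The counts also moved with the scaling, to 15 higher and 17 lower after quantile normalization, 15 and 15 with the hybridization controls, 25 and 7 with arrays centred on their median, and 26 and 8 when scaled on the brighter 50%. The median and the shares over all genes under these scalings are not given here. Called rises were most frequent in the top class of level, both among the members and over all probe sets. Of the 57 members in the top 10% of nonamplified intensity, 29 were higher (50.9%, against 35.6% of all probe sets there) and 14 were lower (24.6%, against 32.7%). Among the 19 members of the next class, down to the 75th percentile, 5 were higher (26.3%, against 12.5% of all probe sets there) and 10 were lower (52.6%, against 43.3%). None of the 13 members between the 50th and the 75th percentile was called higher and 9 were lower, where 14.5% and 40.1% of all probe sets of that class were called.

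**Figure D1:**
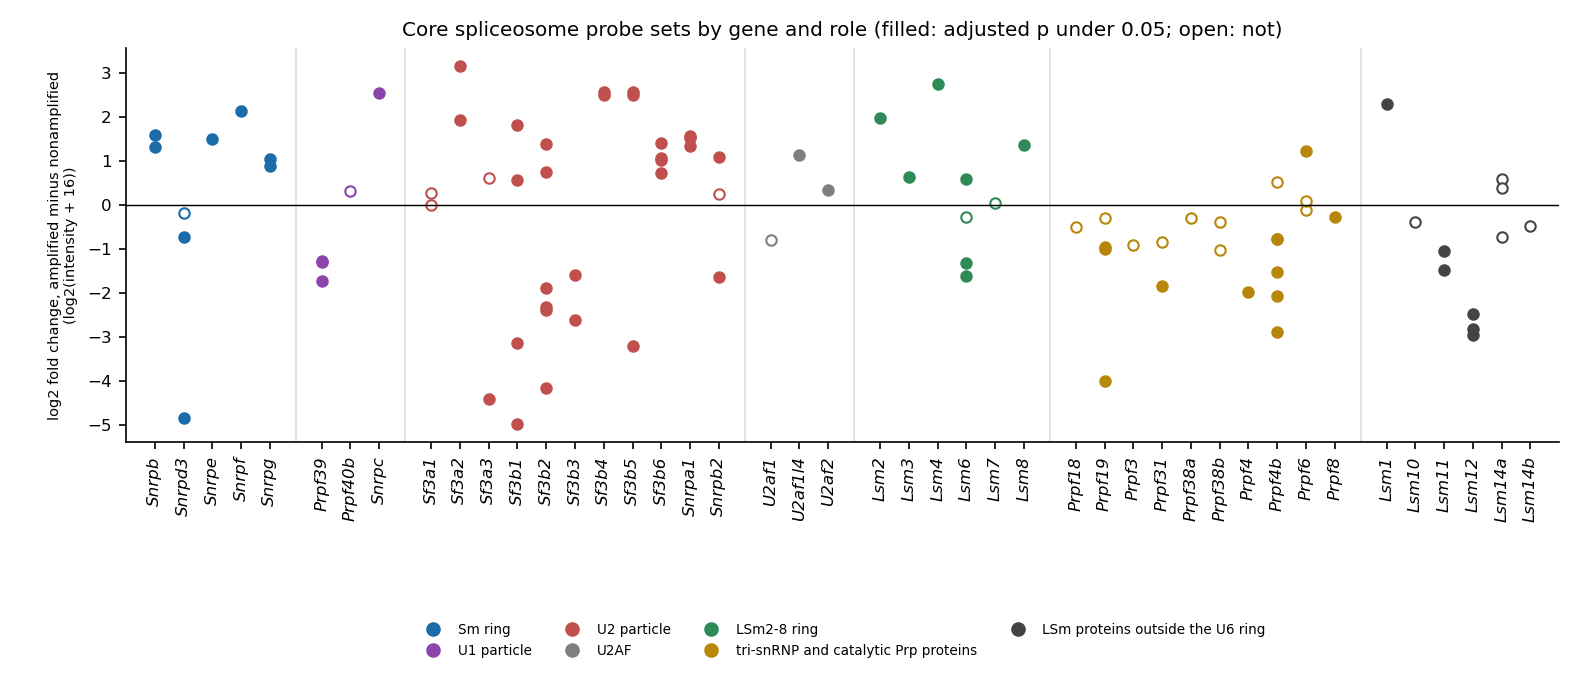
Log2 fold change (amplified minus nonamplified, log2(intensity + 16)) of each tested member, 1 point per probe set, ordered by gene and coloured by role; filled points were called by limma at an adjusted p under 0.05 and open points were not. Values reach from -4.84 to 2.14 in the Sm group and from -4.98 to 3.16 in the U2 group. The U1 group and both LSm groups also hold rises and falls, and the tri-snRNP and Prp group holds 11 lower members and 1 higher one.

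The direction of weak changes depended on the scaling. As deposited, 34 of the 68 called members were higher; the share of higher calls was 40.9% after quantile normalization, 63.1% with each array centred on its median, 62.7% with arrays scaled on their brighter 50% and 38.0% with arrays scaled on the hybridization controls. Of the 34 higher members 25 were called higher under all 4 scalings, and of the 34 lower members 24 were called lower under all 4. The matching shares over all probe sets are not given here. Only the U2AF subunit U2af2 and the U5 protein Prpf8, both with small changes, turned to an opposite call under any of the 4; members that fell below the filter under a scaling count here as not called. Of the 24 members not called as deposited, 16 were called under at least 1 of the 4 scalings.

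The Sm ring, the core shared by 4 of the spliceosomal particles, was measured through 9 probe sets of Snrpb, Snrpd3, Snrpe, Snrpf and Snrpg, and 6 of them rose, 4 of these under all 4 scalings. Snrpf had 7055, 7555 and 8151 on amplified arrays (lowest, median and highest intensity), against 1631, 1741 and 1856 on nonamplified arrays, a log2 change of 2.14 (SE 0.064, limma adjusted p = 5.48e-14, n = 8 each). Snrpe had 8099, 9005 and 9585 on amplified arrays, against 2699, 3227 and 3382 on nonamplified arrays, a log2 change of 1.49 (SE 0.072, limma adjusted p = 2.1e-11). Every amplified array lay above every nonamplified one for both genes. The 2 probe sets of Snrpb rose by log2 fold changes of 1.32 and 1.60 and the 2 of Snrpg by 1.05 and 0.89, although neither call for Snrpg held under quantile normalization. Snrpb has a close paralog in Snrpn, and whether their transcripts share probes was not examined.

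Snrpd3, the remaining Sm gene, went the other way. Its probe set 1422884_at had 1, 72.4 and 193 on amplified arrays, against 1938, 2166 and 2248 on nonamplified arrays, a log2 change of -4.84 (SE 0.39, limma adjusted p = 1.37e-08). Every amplified array lay far below every nonamplified one. The probe set 1422885_at was also lower, at -0.72, a call lost under 3 of the 4 scalings, and 1449629_s_at had a log2 change of -0.17 (adjusted p = 0.41 by limma). Proteins of one ring, which are bound in equal numbers in the cell, thus had transcripts measured with log2 fold changes between -4.84 and 2.14.

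**Figure D2:**
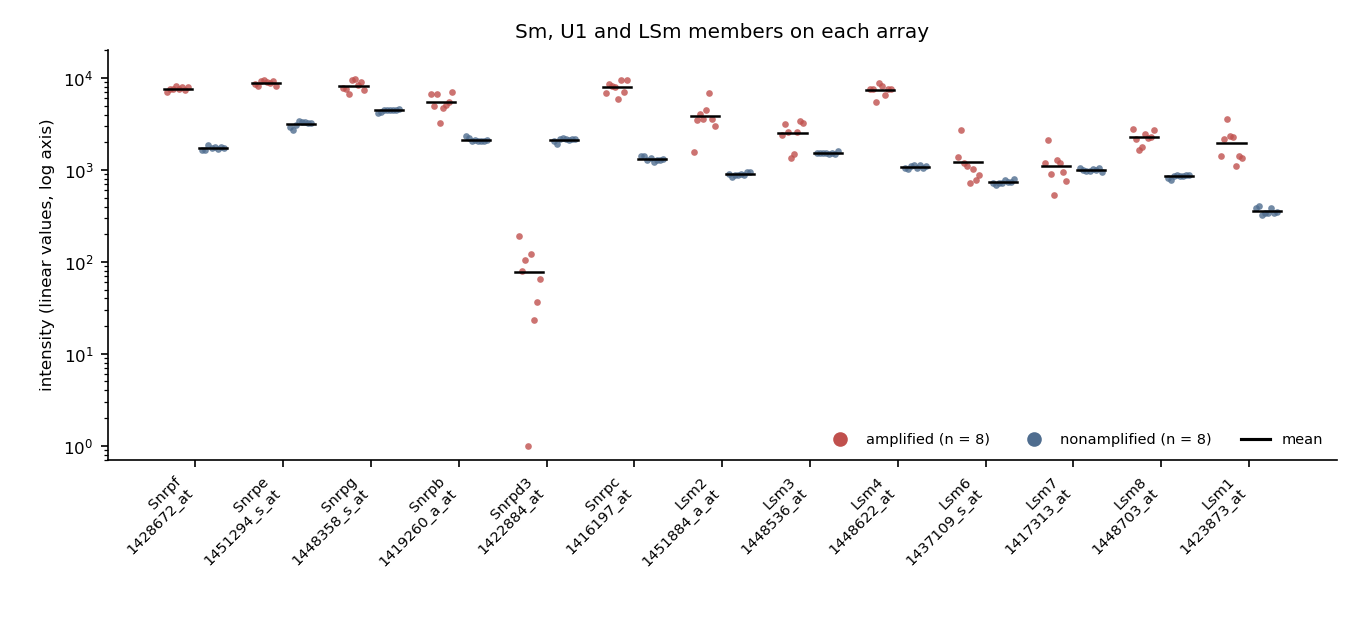
Intensity (log axis) of the brightest probe set (by nonamplified mean) of 13 Sm, U1 and LSm genes on each of 8 amplified (red, left) and 8 nonamplified (blue, right) arrays, with bars at the means. Snrpf, Snrpe, Snrpc and Lsm4 lie above all nonamplified arrays, Snrpd3 lies far below them, and Lsm7 spreads on both sides of them.

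Among U1 proteins, Snrpc, which steadies the pairing of U1 with the start of the intron, rose strongly. It had 5907, 8086 and 9459 on amplified arrays, against 1233, 1305 and 1421 on nonamplified arrays, with a log2 change of 2.55 (SE 0.099, limma adjusted p = 1.3e-12). All 3 probe sets of Prpf39, related to a U1 protein of yeast, fell, by log2 fold changes of -1.72, -1.30 and -1.27, and the last lost its call under 2 scalings. Prpf40b, of the same kind, had 2.38, 243 and 351 on amplified arrays, against 121, 143 and 157 on nonamplified arrays, and was not called (log2 fold change 0.33, limma adjusted p = 0.586). Its amplified arrays lay on both sides of the nonamplified ones, and 1 of them was nearly at the lowest value of the table.

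The U2 particle contributed 36 of the 105 probe sets, and of its 33 tested members 18 rose, 11 fell and 4 were not called; 15 of the rises and 10 of the falls were called under all 4 scalings. Both proteins that sit directly on the U2 RNA were measured. All 3 probe sets of Snrpa1 rose, by log2 fold changes of 1.35 to 1.58. Its partner Snrpb2 gave 2 opposite calls. Probe set 1452422_a_at had 2713, 2996 and 3250 on amplified arrays, against 1356, 1393 and 1441 on nonamplified arrays (log2 fold change 1.09, SE 0.065, limma adjusted p = 2.73e-10), while 1426613_a_at had 190, 298 and 766 on amplified arrays, against 1006, 1083 and 1127 on nonamplified arrays (log2 fold change -1.63, SE 0.26, adjusted p = 4.31e-05). In both cases the groups did not overlap.

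SF3a is the 3-subunit complex that ties U2 to the branch region. Sf3a2 had the largest rise of the 92 tested members on the values as deposited. Its probe set 1450576_a_at had 877, 1623 and 2166 on amplified arrays, against 129, 147 and 184 on nonamplified arrays, a log2 change of 3.16 (SE 0.18, limma adjusted p = 1.42e-10). A second probe set of Sf3a2 rose as well, by 1.93, and for both the amplified arrays lay above all nonamplified ones. Sf3a1 was not called with either of its tested probe sets, at log2 fold changes of 0.00 and 0.27. For Sf3a3, 1432488_a_at had 12, 33.1 and 308 on amplified arrays, against 1151, 1235 and 1327 on nonamplified arrays (log2 fold change -4.43, SE 0.36, limma adjusted p = 1.69e-08), and 1423811_at had a log2 change of 0.62 that was not called (adjusted p = 0.058). The latter was called higher with arrays centred on their median (1.17), scaled on the brighter 50% (1.15) and with weights per group.

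SF3b holds the branch adenosine of the intron, and the log2 fold changes of the 6 subunits measured here ran from -4.98 to 2.59. Sf3b4, which binds RNA next to the branch point, had 4559, 6008 and 7030 on amplified arrays with 1424619_at, against 926, 981 and 1023 on nonamplified arrays, a log2 change of 2.59 (SE 0.084, limma adjusted p = 1.63e-13). Its second probe set rose by 2.51. All 4 probe sets of Sf3b6, the subunit that touches the branch adenosine, rose by log2 fold changes of 0.74 to 1.42, the smallest of which lost its call under 2 scalings. Sf3b3, a large scaffold subunit, fell with both its probe sets, by -1.59 with 1415985_at and -2.62 with 1430075_at. The second had 1, 5.01 and 33.1 on amplified arrays, against 116, 131 and 147 on nonamplified arrays, and passed the filter only through the latter. The size of its fall depends on the pseudocount, at -1.42 with 64, and with a pseudocount of 1 it was not tested.

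The largest subunit, Sf3b1, had 2 probe sets that rose and 2 that fell. On amplified arrays 1418562_at had 1, 12.3 and 46.1, against 837, 895 and 975 on nonamplified arrays (log2 fold change -4.98, SE 0.25, limma adjusted p = 3.7e-11). Its amplified values lie near the lowest of the table, so that the size of the fall depends on the pseudocount, at -3.60 with 64 and -6.56 with 1. By contrast, 1440818_s_at had 4024, 4719 and 6585 on amplified arrays, against 1225, 1384 and 1480 on nonamplified arrays (log2 fold change 1.82, SE 0.096, adjusted p = 6.61e-11). The probe set 1418561_at was listed at 1 on all 8 amplified arrays, against 119 to 150 on nonamplified arrays, so that the size of its fall is set by the pseudocount; it fell below the filter under 3 of the 4 scalings. The fourth, 1449138_at, rose by 0.58 and was not called after quantile normalization or scaling on the hybridization controls.

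Sf3b2 and Sf3b5 showed the same division. For Sf3b5, a small subunit, 1437972_s_at had 5808, 9053 and 10479 on amplified arrays, against 1377, 1453 and 1524 on nonamplified arrays, a log2 change of 2.58 (SE 0.11, limma adjusted p = 2.6e-12). A second probe set of Sf3b5 rose by 2.51, but 1439370_x_at had 1, 4.31 and 9.08 on amplified arrays, against 150, 169 and 202 on nonamplified arrays (log2 fold change -3.22, SE 0.11, adjusted p = 2.52e-13). This probe set passed the filter only through the nonamplified arrays. The size of its fall depends on the pseudocount, at -1.79 with 64, and with a pseudocount of 1 it was not tested. Of the 6 tested probe sets of Sf3b2, a partner of Sf3b4, 2 rose by 0.76 and 1.39 and 4 fell by -1.90 to -4.18; the rise of 0.76 was not called under 2 scalings.

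**Figure D3:**
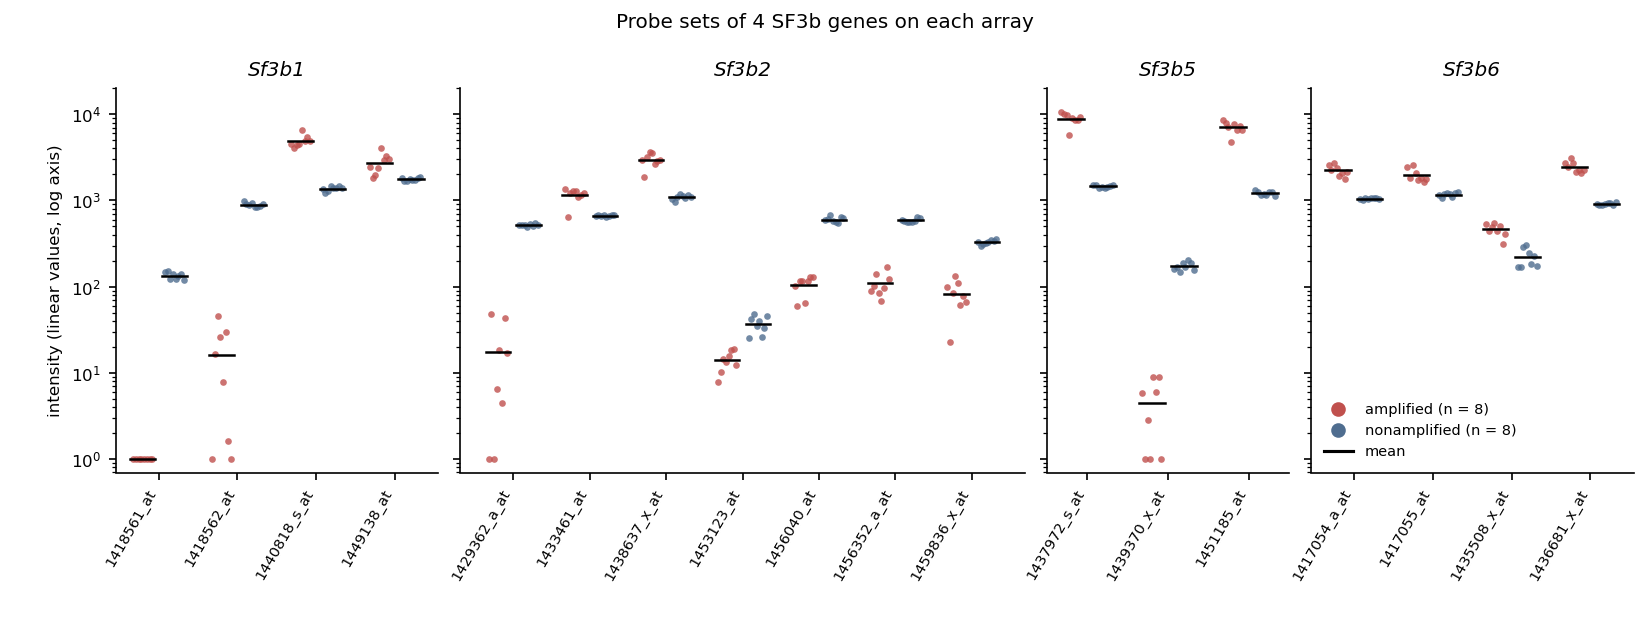
Intensity (log axis) of every probe set of Sf3b1, Sf3b2, Sf3b5 and Sf3b6 on each of 8 amplified (red, left) and 8 nonamplified (blue, right) arrays, with bars at the means. Probe sets of Sf3b1, Sf3b2 and Sf3b5 lie above the nonamplified arrays in some cases and far below them in others, whereas all 4 of Sf3b6 have higher means.

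The share of genes with such disagreement was near that of all genes. Of 24 member genes with at least 2 tested probe sets, 5 had calls in both directions, namely Sf3b1, Sf3b5, Sf3b2, Snrpb2 and Lsm6, which is 20.8% against 19.9% of 5605 genes. The distance between the highest and lowest log2 fold change of a gene was 6.80 for Sf3b1, 5.79 for Sf3b5 and 5.57 for Sf3b2, and its median was 1.13 over the 24 genes and 1.35 over the 5605. For Sf3b1, Sf3b5 and Sf3b2 the lowest change comes from a probe set near the lowest amplified values, so the distance depends on the pseudocount. Probe sets ending in _s_at or _x_at can hold probes that match more than 1 transcript. Of 11 members ending in _s_at 8 were higher and 0 lower, where 24.2% and 30.5% of all tested _s_at probe sets were. Of 11 ending in _x_at 6 were higher and 4 lower, where 40.6% and 19.4% of all were. Of 13 ending in _a_at 6 were higher and 6 lower, against 24.4% and 36.9% of all, and of 57 ending in plain _at 14 were higher and 24 lower, against 23.4% and 33.5% of all. Where along each transcript the probes lie was not examined.

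U2AF marks the end of the intron, with U2af2 on the pyrimidine tract and U2af1 on the final dinucleotide. Neither of the 2 rises called here held under all 4 scalings, and for all 3 genes the groups overlapped. U2af2 had 1029, 1433 and 1883 on amplified arrays, against 1063, 1101 and 1130 on nonamplified arrays (log2 fold change 0.34, SE 0.12, limma adjusted p = 0.0248), and was called lower after quantile normalization. U2af1l4, a paralog of U2af1, had 182, 541 and 1720.5 on amplified arrays, against 208, 225 and 266 on nonamplified arrays (log2 fold change 1.14, SE 0.38, adjusted p = 0.0162), a call lost when scaled on the hybridization controls. U2af1 had 494, 1150 and 4492 on amplified arrays, against 1982, 2182 and 2211 on nonamplified arrays, and was not called (log2 fold change -0.79, adjusted p = 0.0643 by limma), though it was called lower after quantile normalization (-1.55), with the hybridization controls (-1.22) and with weights per group.

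The LSm ring of U6 had 5 rises, 2 falls and 2 probe sets not called, and 3 of the rises held under all 4 scalings. Lsm4 had 5495, 7617 and 8848 on amplified arrays, against 1020, 1075 and 1143 on nonamplified arrays, a log2 change of 2.75 (SE 0.092, limma adjusted p = 2.06e-13). Lsm2, Lsm8 and Lsm3 rose by log2 fold changes of 1.97, 1.37 and 0.65, the last of which was not called under 2 scalings. Lsm7 had 533, 1072 and 2116 on amplified arrays, against 949, 1005 and 1048 on nonamplified arrays, and was not called (log2 fold change 0.06, adjusted p = 0.83 by limma), though it was called lower after quantile normalization and higher with arrays centred on their median. Its groups overlapped fully, with the nonamplified arrays inside the amplified range.

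Lsm6 gave 4 results from 4 probe sets. It was higher with 1437109_s_at (0.60, limma adjusted p = 0.0205, not called under 2 scalings) and lower with 1455926_at (-1.32, adjusted p = 1.06e-06). With 1437108_at it was lower by -1.61, close to the threshold (adjusted p = 0.0494), and that call was lost under 3 scalings. With 1431054_at it was not called, at -0.26.

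Prp proteins act in the tri-snRNP and in the catalytic steps, and of their 22 tested probe sets 11 fell, 1 rose and 10 were not called; 6 of the falls held under all 4 scalings. Prpf19, a ubiquitin ligase of the complex that joins at activation, fell with 3 of 4 tested probe sets. The furthest was 1460633_at, which had 19.2, 46.5 and 58.8 on amplified arrays, against 862, 925 and 984 on nonamplified arrays (log2 fold change -4.01, SE 0.13, limma adjusted p = 1.41e-13). The other two were lower by -0.95 and -1.01, were annotated from the same source sequence, and lost their calls under 2 scalings. Prpf4b, a kinase of the tri-snRNP, fell with 5 of 6 probe sets, by -0.77 to -2.88, and the 2 smallest of these falls were lost under some scalings. The sixth, 1455696_a_at, had 9.07, 808 and 1363 on amplified arrays, against 229, 243 and 276 on nonamplified arrays, and was not called (log2 fold change 0.52, adjusted p = 0.595 by limma). Of its 8 amplified values 6 lay above and 2 far below the nonamplified arrays.

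The U4/U6 proteins Prpf4 and Prpf31 fell by log2 fold changes of -1.99 and -1.85 with 1429724_at and 1448633_at, and Prpf3, of the same particle, was not called (-0.91, limma adjusted p = 0.0734). Prpf3 was called lower after quantile normalization (-1.21), with the hybridization controls (-1.32) and with weights per group. Another probe set of Prpf31, 1453005_at, was not called either (-0.84, limma adjusted p = 0.159), with amplified arrays on both sides of the nonamplified ones. Prpf8, the scaffold at the catalytic centre, had one of the smallest called changes. Its intensity was 1216, 1394 and 1681 on amplified arrays, against 1555, 1663 and 1950 on nonamplified arrays (log2 fold change -0.27, SE 0.086, adjusted p = 0.0147), and it was called higher, at 0.29 and 0.27, when arrays were centred on the median or scaled on the brighter 50%. With weights per group it was not called (limma adjusted p = 0.153). Prpf6, which bridges U5 and U4/U6, rose with 1454789_x_at by 1.22 and was not called with its other two tested probe sets (-0.11 and 0.09). The first of these, 1424036_at, was called lower after quantile normalization (-0.56) and with the hybridization controls (-0.53), and higher with arrays centred on their median (0.44) or scaled on the brighter 50% (0.42). The second, 1426026_at, was called higher under 3 scalings, at 0.49 to 0.50. Prpf18, Prpf38a and Prpf38b were not called with any tested probe set.

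LSm proteins that serve outside U6 behaved unequally. Lsm1, which takes the place of Lsm8 in the cytoplasmic ring of mRNA decay, had 1116, 1817 and 3613 on amplified arrays, against 324, 347 and 406 on nonamplified arrays, a log2 change of 2.31 (SE 0.20, limma adjusted p = 2.85e-08). All 3 probe sets of Lsm12 fell, by -2.97 (1427998_at), -2.83 (1447698_x_at) and -2.48 (1429509_at). Their amplified medians were low, at 13.6, 12.3 and 18.9, so the sizes depend on the pseudocount. In the same order they were -4.44, -4.09 and -3.15 with 1, and -1.88, -1.66 and -1.58 with 64. Both 1447698_x_at and 1429509_at passed the filter only through the nonamplified arrays. For 1427998_at the groups overlapped, with 405 on the highest amplified array, against 299 to 348 on nonamplified arrays. Both probe sets of Lsm11, a protein of the U7 particle that trims histone mRNA, fell by -1.48 and -1.06. The second call for Lsm11 was lost when arrays were centred on their median. Its U7 partner Lsm10 was not called, nor were the 3 tested probe sets of Lsm14a or the 1 of Lsm14b, proteins of cytoplasmic RNA granules.

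Amplification reactions differed from one another far more than nonamplified arrays did. The median SD of the tested members on the log2 scale was 0.488 over amplified arrays and 0.0738 over nonamplified arrays, and over all tested probe sets it was 0.513 and 0.126. The SD was greater over amplified arrays for 88 of the 92. Within the top 10% of nonamplified level the median amplified SD was 0.377 for members, against 0.566 for all probe sets of that class. For the class from the 75th to the 90th percentile it was 0.556 for members and 0.961 for all, but for the class below that the members' 0.593 was greater than the 0.463 of all.

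The members with the lowest and highest spread among those of the top 25% in level show what this meant for a single reaction. Snrpf and Snrpe had amplified SDs of 0.0731 and 0.0847, near the spread of nonamplified arrays, followed by 0.0928 for Snrpb2 with 1452422_a_at and 0.165 for Prpf8. The highest were 2.32 for Prpf4b with 1455696_a_at, 1.997 for Lsm6 with 1437108_at, 1.81 for Prpf38b with 1428674_at and 1.71 for Lsm12 with 1427998_at. Prpf38b had 19.1, 191 and 1212 on amplified arrays, against 455, 491 and 529 on nonamplified arrays. Its highest and lowest reactions thus lay on opposite sides of the nonamplified arrays.

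**Figure D4:**
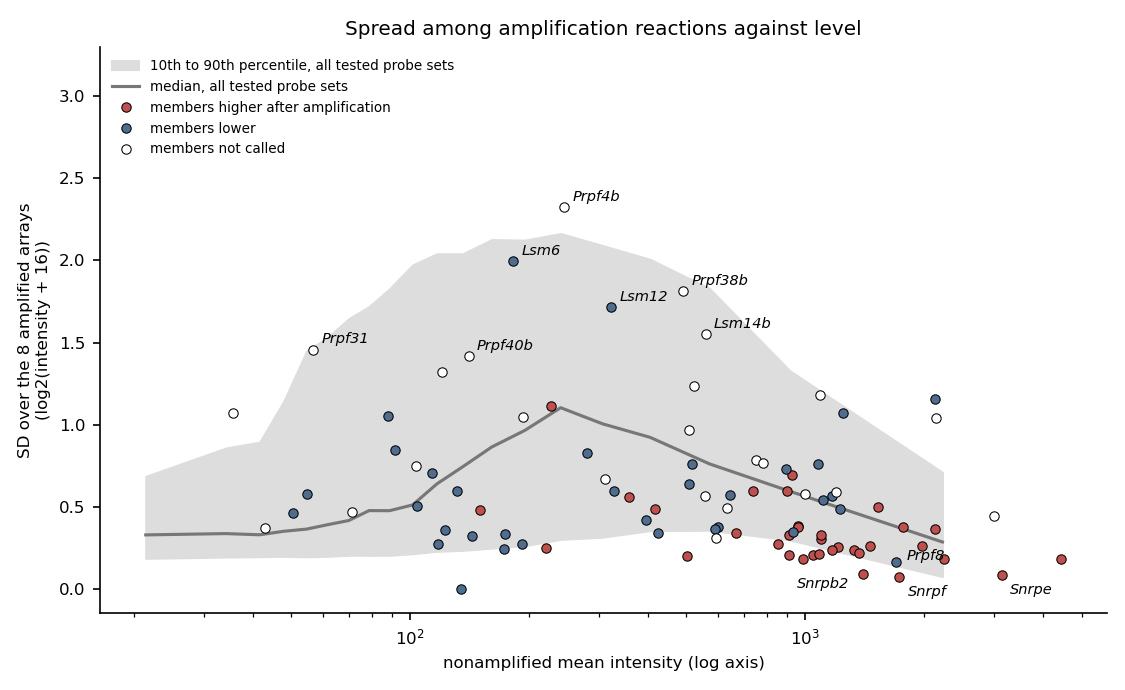
SD over the 8 amplified arrays (log2(intensity + 16)) of each tested member against its nonamplified mean intensity (log axis), coloured by limma call; the line and band are the median and the 10th to 90th percentile of all tested probe sets. Many bright members lie under the line, with Snrpf, Snrpe and Snrpb2 lowest, while Prpf4b and Lsm6 lie near the top of the band or above it.

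A dropout was counted where a member in the upper 50% of nonamplified level fell under the 25th percentile of an amplified array; it describes the probe set, not all transcripts of its gene. This happened on at least 1 amplified array for 17 of 89 such members (19.1%, against 37.8% of all probe sets in the upper 50%). Counted over arrays it was 61 of 712 values (8.57%, against 14.5%), or 7.63 ± 1.19 members per amplified array (SD, n = 8, range 6 to 9). These shares are not matched for level within the upper 50%. Above the 90th percentile of nonamplified level lay 57 of the 89 members, against 4504 of all 22518 probe sets. Shares at equal level were not computed, so the lower shares are not read as a trait of the members. No dropout of a member was counted on nonamplified arrays, where the upper 50% was set for each array by the mean of the other nonamplified arrays. Over all probe sets it was 0.0538% per nonamplified array on average. The 89 members themselves were chosen by the mean of the whole nonamplified group. No reaction stood far from the others in this count. Sf3b1 with 1418561_at and Sf3b5 with 1439370_x_at dropped out of all 8 reactions, while other probe sets of both genes rose. Sf3b3 with 1430075_at and Prpf31 with 1453005_at dropped out of 6 reactions each, and Lsm12 with 1447698_x_at from 5.

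Correlations between probe sets of one gene over the 8 reactions ranged widely. Over 85 pairs of tested probe sets of the same gene, from 24 genes, the median Pearson correlation of log2 values over the amplified arrays was 0.33, against 0.16 over 14797 such pairs of all genes and -0.0096 over 4010 pairs of members from different genes. Over the nonamplified arrays the same-gene medians were 0.22 for members and 0.10 for all genes. A correlation above 0.7 was reached by 25.9% of members' pairs, 18.0% of all same-gene pairs and 2.47% of pairs from different genes. Where both probe sets of a pair had an amplified SD over 0.5, 3 of 22 such pairs of members (13.6%) exceeded 0.7, against 30.7% of all 5287. The 22 pairs come from 11 genes, with more from Prpf4b than from any other. Pairs that share a probe set are not independent, so no order of members and all genes is drawn from them. The median over these 22 pairs was 0.14 on amplified arrays and 0.38 on nonamplified arrays. Pairs that share a gene share the reaction and may share probes.

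By an exact permutation test of Pearson's r over the 40320 orders of 8 arrays, 19 of the 85 pairs, in 11 genes, had an adjusted p under 0.05, and all 19 were positive. By Spearman's rho 8 pairs passed. Lsm14a with 1428437_at and 1428438_s_at reached r = 0.99 (Spearman's rho 0.90, exact permutation p = 0.000248 for r, adjusted p = 0.00301). Without the 2 arrays farthest from the median of 1428437_at, r was 0.98. The same 3 arrays held the highest values of both probe sets. The third probe set of Lsm14a, annotated from the same source sequence, did not follow, with r = 0.11 against 1428438_s_at (rho 0.17, exact permutation p = 0.798, adjusted p = 0.843). Without the 2 farthest arrays, chosen in every pair by its first probe set alone, r was 0.34 in a pair of Sf3b2 and 0.40 in a pair of Sf3b5. These were the lowest of the 19. Leaving out the extremes of 1 probe set also narrows its range, which by itself can lower r. The lowest correlation of the 85 was -0.80 for Sf3a1 (rho -0.88, r -0.81 without the 2 farthest arrays, exact permutation adjusted p = 0.0704). Next came -0.79 for Prpf38b (rho -0.62, r -0.99 without the 2 farthest arrays, exact permutation adjusted p = 0.0753). Neither passed the threshold.

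**Figure D5:**
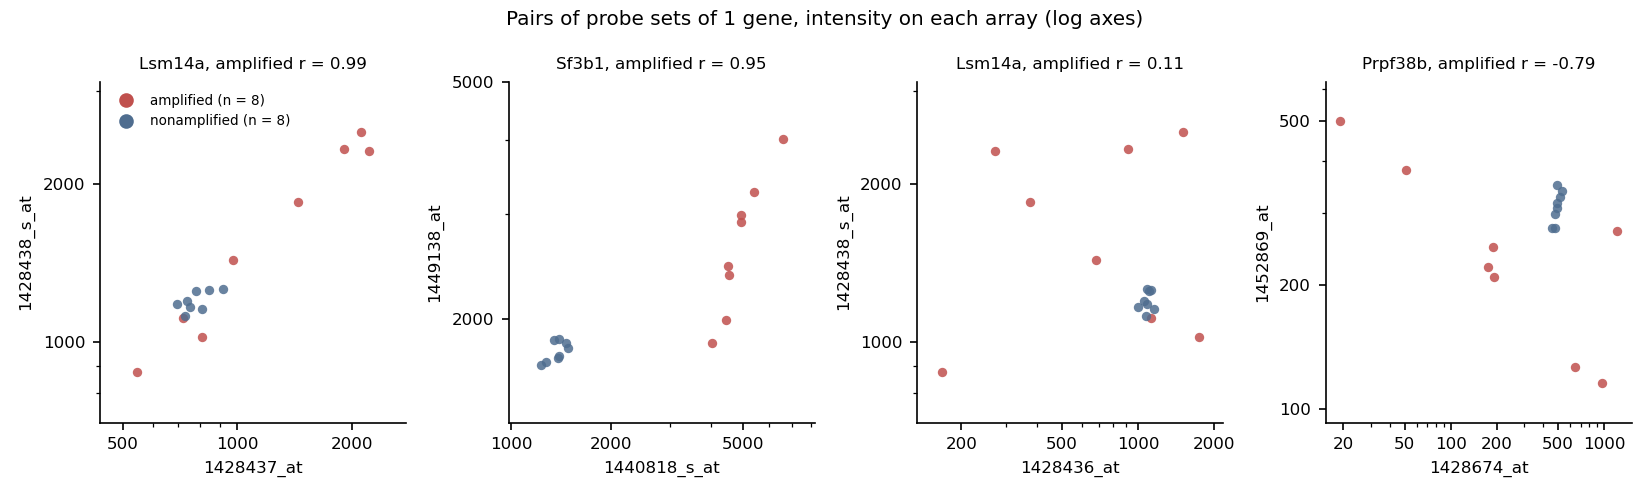
Intensity (log axes) of 2 probe sets of one gene plotted against each other, 1 point per array, with 8 amplified arrays in red and 8 nonamplified arrays in blue, for pairs of Lsm14a, Sf3b1 and Prpf38b. The pair of Lsm14a at r = 0.99 follows a line, and the pair of Prpf38b at r = -0.79 runs the other way.

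Spliceosome proteins outside the member families were counted with 1 probe set per gene. Of 53 tested, 14 rose (26.4%, against 23.1% of all genes), 16 fell (30.2%, against 30.3%) and 23 were not called, with a median log2 fold change of -0.02, against -0.17 over all genes. Under the other scalings the counts were 6 higher and 27 lower (quantile), 25 and 10 (median, and likewise the brighter 50%) and 6 and 23 (hybridization controls). The share of higher calls over all probe sets moved too, from 43% as deposited to 50.9% (quantile) and 66.4% (median). It was 65.7% with the brighter 50% and 23.8% with the hybridization controls. Shares of all genes called under these scalings are not given here. The largest rises were 2.11 for Zcrb1, a protein of the minor spliceosome, 1.75 for Usp39 of the tri-snRNP and 1.53 for Snw1 of the activated spliceosome. The largest falls were -4.37 for the helicase Ddx46, which remodels U2, -2.56 for the helicase Dhx38 and -2.45 for Crnkl1, a scaffold of the activated complex. Ddx46 had 1, 8.28 and 18.7 on amplified arrays, against 443, 464 and 683 on nonamplified arrays (limma adjusted p = 6.29e-13).

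Of 14 tested factors that build snRNPs, 1 rose (7.14%, against 23.1% of all genes), 5 fell (35.7%, against 30.3%) and 8 were not called, with a median log2 fold change of -0.58. The falls numbered 8 after quantile normalization, 9 with the hybridization controls and 2, beside 2 rises, under the other scalings. Calls over all probe sets moved with the scaling as well, and shares of all genes under these scalings are not given here. The one that rose was Clns1a, a chaperone of Sm proteins, at 1.03. The largest falls were -2.61 for Prmt5, the methyltransferase that modifies Sm proteins, and -1.96 for Phax, the export adaptor of small nuclear RNA. Prmt5 had 125, 183 and 307 on amplified arrays, against 1117, 1208 and 1241 on nonamplified arrays (limma adjusted p = 8.95e-11), with no overlap.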

How the data were processed

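The authors deposited linear intensities, 1 for each probe set on each array, none under 1. Per the labels' protocols, RNA was prepared with a silica column kit and labelled with the Affymetrix one-cycle assay. How probes were summarised and arrays scaled is not given in the sources used here, and the number of arrays, 16, limits the precision. All value columns were used, and groups came from the sample titles.

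Gene symbols came from the platform annotation, and all 105 members matched mouse RefSeq. The 64 Affymetrix controls were left out. Changes are on the scale of log2(intensity + 16), which understates those of dim probe sets. Probe sets with a mean at or under the 40th percentile (about 33.7) were not tested. Groups were compared with limma 3.58.1 in R 4.3.3 (lmFit, eBayes, 2-sided, Benjamini-Hochberg over 27022 probe sets), after tests on simulated data. Pairs were adjusted over 85 exact 2-sided permutation tests.

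Members, lists and rules were chosen with earlier results of these data known. Named members are the 8 largest changes each way without overlap, the largest and smallest of each role, the 4 most and least variable, the 4 with most dropouts, genes called both ways, and the largest of 2 lists of related genes. Others are named to complete a gene, after their values were seen, and the pairs were examined after seeing the data. There were 12 alternatives of the comparison.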

Additional observations from a re-analysis of the deposited data

Results flagged for a closer look

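In 5 of 78 combinations of a named member and a group, the highest or lowest of the 8 arrays stood apart from the others by more than Dixon's 95% critical gap, which chance alone gives in about 1 of 20 groups. Prpf40b had 2.38 on amplified array 2, where the next lowest amplified array had 188. Sf3a3 with 1432488_a_at had 308 on amplified array 8, where the next highest had 49.96. Sf3b4 with 1424619_at had 4559 on amplified array 2, against 5852 on the next, and Sf3b5 with 1437972_s_at had 5808 on amplified array 4, against 8477 on the next. Snrpd3 with 1449629_s_at had 89.5 on nonamplified array 5, where the next highest nonamplified array had 74.0. No array accounts for more than 2 of the 5.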

How the results depend on the processing

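Under all 12 alternatives of the comparison the number of called members stayed within 1.5 times of 68. Leaving out _x_at and _s_at probe sets, by which 70 members are tested, gave 20 higher members in place of 34. Over all probe sets, 10148 were called with the filter at the 60th percentile, which tests fewer, against 15543. U2af2 was -0.38 after quantile normalization and -0.0801 when scaled on the hybridization controls. Lsm6 with 1437109_s_at was -0.0213 and Lsm7 was -0.62 after quantile normalization. Prpf8 was 0.29 with arrays centred on the median and 0.27 when scaled on the brighter 50%. The cause was not tested. Values listed at 1 have no order among themselves, which limits what can be said of members that dropped out. The median amplified SD was 0.56 with a pseudocount of 1 and 0.366 with 64, in place of 0.488, and 10 members dropped out of at least 1 reaction when only the upper 25% were counted, in place of 17.

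Equal replicate numbers in both groups do not pair the arrays, since the deviations of same-numbered arrays correlated between -0.0078 and 0.0176. With the replicate number as a block 66 members were called, 34 higher and 32 lower, and Lsm6 with 1437108_at (limma adjusted p = 0.0626) and Prpf8 (0.0573) lost their calls.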
